A study of Mus musculus with 6 samples.

Results

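The 10 genes described here encode the survival and death proteins of the BCL-2 family, and they were taken by gene symbol from the 24420 genes listed for regulatory T (Treg) cells with and without the O-GlcNAc transferase OGT. All 10 symbols were found, and all 10 passed the filter on low counts. The RNA came from sorted YFP+ Treg cells of female C57BL/6 mice, labelled as lymph node tissue and enriched with CD4 beads before the sort. The 3 OGT-sufficient samples were Foxp3YFP-Cre/wtOgtwt/fl and the 3 OGT-deficient samples were Foxp3YFP-Cre/wtOgtfl/fl. Cre was thus driven by the *Foxp3* locus, and both groups carried 1 copy of the YFP-Cre allele and at least 1 floxed *Ogt* allele. Because *Foxp3* is on the X chromosome, YFP marks those Treg cells of a female in which the Cre-bearing X chromosome is active. The paper calls the YFP+ Treg cells of the Foxp3YFP-Cre/wtOgtwt/fl females OGT-sufficient. Which X chromosome carried their floxed *Ogt* allele is not stated in the sources used here. The labels give no age, and the age range that the study's methods state for mice other than the young males is that of young adults.

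BCL-2 family proteins decide whether the outer mitochondrial membrane is opened, which releases cytochrome c and starts the caspase cascade. Survival members (BCL-2, MCL-1 and BCL-XL) hold back the pore-forming members BAX and BAK, and the BH3-only members (BIM, BID, BAD, PUMA and NOXA) bind the survival members or activate the pore formers. In Treg cells, MCL-1 and the balance of BIM against it are known to set cell number, and IL-2 acting through STAT5 is a well-known inducer of *Bcl2* and *Mcl1* in T cells.

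The total count was between 3375454 and 4103552 per sample, of which the ribosomal RNA gene *Rn45s* took 24.2% to 37.1%. Levels are given in CPM, counts scaled to a common library total after edgeR's TMM scaling. Values of a group are listed in the order of replicates 1, 2 and 3, and SE is the standard error. A floor of 3 counts was 0.756 to 0.805 CPM. *Ogt*, the targeted gene, had 562, 632 and 957 counts with OGT and 327, 266 and 368 without, so all 3 OGT-deficient samples were lower. Its level was 190.0 ± 53.7 against 82.4 ± 14.6 CPM (n = 3 each, SD), and the log2 fold change of -1.21 (SE 0.21) had an adjusted p of 0.191 by edgeR's quasi-likelihood test. *Foxp3* was present in every sample, at 239 ± 55.9 CPM (n = 3, SD) in OGT-sufficient and 274 ± 22.6 CPM (n = 3, SD) in OGT-deficient Treg cells. Of 6 Treg markers, *Il2ra* and *Tnfrsf18* were separate with the OGT-deficient samples above (1.35-fold, unadjusted p = 0.0579, and 1.48-fold, unadjusted p = 0.0439, by edgeR), and *Ikzf2*, which overlapped, was at 0.835-fold. The part of these markers in the results below was not tested. OGT-sufficient replicate 3 stood apart, with counts on 18346 genes against 14412 to 15197 elsewhere. The summed level of 4 neutrophil markers was 212 CPM there and 15.1 to 34.9 CPM in the other samples. The summed level of 10 macrophage markers varied from 1107 to 4176 CPM, and the ranges of the groups overlapped (1399 to 2897 CPM in OGT-sufficient and 1107 to 4176 CPM in OGT-deficient samples). Of these 10, *Lyz2* alone was separate, 1.55-fold higher in OGT-deficient samples (unadjusted p = 0.00810, adjusted p = 0.516 by edgeR). The 3 T-cell markers *Cd3e*, *Cd3d* and *Cd4* were at 1.18-fold, 1.22-fold and 1.08-fold, with overlapping groups. Their summed level was 914 to 1366 CPM. The macrophage marker *Vcam1* alone had a mean of 1132 CPM in OGT-sufficient and 1448 CPM in OGT-deficient samples. That of *Cd4* was 625 and 677 CPM. The levels below are thus those of sorted samples that also held macrophage transcripts, not of Treg cells alone. The 6 B-cell markers were at 0.444-fold (*Blk*) to 0.841-fold (*Cd79a*). Of them, *Cd79b* alone was separate, with the OGT-deficient samples below (unadjusted p = 0.0311 by edgeR). Whether a shift in cell makeup bears on the results below was not tested.

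Among the 10 genes, *Bcl2*, *Mcl1* and *Bcl2l11* (BIM) were 1.28-fold, 1.23-fold and 1.32-fold higher in OGT-deficient samples. In TMM-scaled CPM, each of these genes was higher in all 3 OGT-deficient samples than in any OGT-sufficient sample. These are 2 survival genes and the BH3-only gene whose product they restrain. The third survival gene, *Bcl2l1* (BCL-XL), did not share this pattern, nor did the pore-forming genes or the other BH3-only genes. In sorted bulk cells, fewer cells of one kind and less RNA per cell cannot be told apart. Differences were tested with edgeR's quasi-likelihood test over the 10949 genes with enough counts. Of the 10 genes, 3 had an unadjusted p under 0.05 and all 3 were higher in OGT-deficient cells, where 7.1% of all genes tested had such a p, 3.09% with a higher and 4.01% with a lower level in OGT-deficient cells. After Benjamini-Hochberg adjustment over all genes, 0 of the 10 passed a false discovery rate (FDR) of 0.1, against 0.0274% of all genes. In 3 of the 10 genes no OGT-deficient sample lay within the OGT-sufficient range, all 3 above it. Over all genes the groups were separate in 13.2%, with OGT-deficient samples above in 5.72% and below in 7.48%. Over the 10 genes the log2 fold change had a median of 0.05, and over all genes tested of -0.02.

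**Figure D1:**
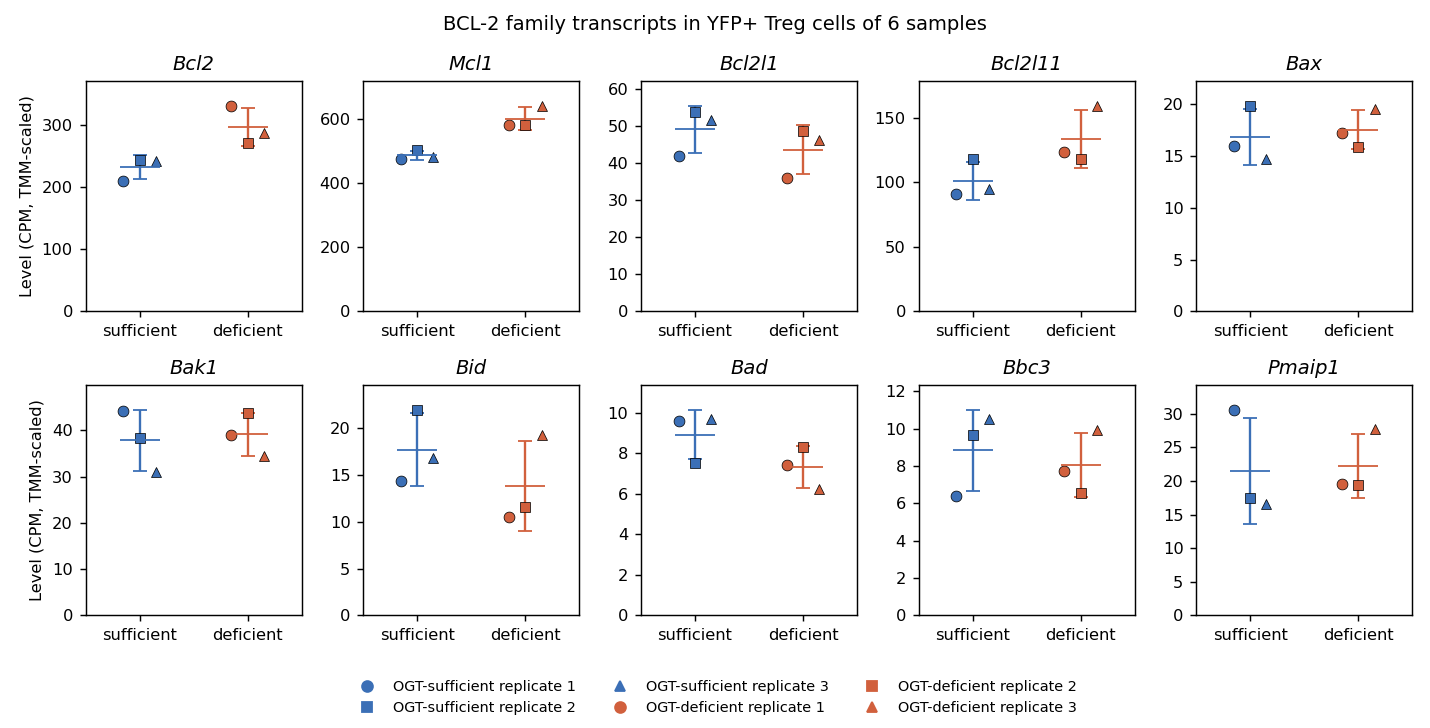
Level of each of the 10 genes (CPM of the TMM-scaled library, linear axis from 0) in the 3 OGT-sufficient (blue) and 3 OGT-deficient (orange) samples, where symbols mark the replicate and bars give the mean ± SD. The OGT-deficient points lie above all OGT-sufficient points for *Bcl2*, *Mcl1* and *Bcl2l11*, the last by a margin of 118.2 against 118.0 CPM, and the groups overlap in the other 7 genes.

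The promoters of these 3 genes are shown because their transcripts were higher together. Each line gives the 250 bases before the most upstream RefSeq start site (GRCm38.p6, the same assembly as the mm10 of the submitters' processing notes), 5′ to 3′ on the gene's strand. Capitals mark a GC box (GGGCGG on either strand) or the FOXO motif GTAAACA on either strand.
Bcl2, chr1:106714291-106714540, minus strand: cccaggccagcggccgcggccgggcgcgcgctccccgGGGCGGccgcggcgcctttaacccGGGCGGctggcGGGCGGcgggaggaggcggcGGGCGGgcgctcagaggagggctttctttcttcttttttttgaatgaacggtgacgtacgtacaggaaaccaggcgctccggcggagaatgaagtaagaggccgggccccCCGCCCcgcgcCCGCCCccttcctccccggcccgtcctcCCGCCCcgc
Mcl1, chr3:95658471-95658720, plus strand: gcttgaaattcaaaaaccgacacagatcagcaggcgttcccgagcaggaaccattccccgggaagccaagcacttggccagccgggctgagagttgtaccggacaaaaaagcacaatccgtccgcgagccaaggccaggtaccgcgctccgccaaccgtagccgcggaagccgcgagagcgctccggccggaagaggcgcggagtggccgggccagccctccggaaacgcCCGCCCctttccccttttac
Bcl2l11, chr2:128125788-128126037, plus strand: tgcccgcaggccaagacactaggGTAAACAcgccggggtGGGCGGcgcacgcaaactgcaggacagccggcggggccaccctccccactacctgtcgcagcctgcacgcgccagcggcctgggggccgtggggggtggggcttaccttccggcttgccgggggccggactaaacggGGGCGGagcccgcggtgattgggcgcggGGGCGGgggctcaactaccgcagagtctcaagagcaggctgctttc
These windows lie outside the annotated exons of their genes. They were rich in G and C, at 74.8% for *Bcl2*, 64.4% for *Mcl1* and 72.0% for *Bcl2l11*, where the median of 32851 RefSeq promoters was 52.4%. They held 36, 26 and 24 CpG pairs, against a median of 6. Promoters of some members that were not higher had such values too. These were 76.4% and 27 CpG pairs at the first start site of *Bbc3*, 63.6% and 18 at *Bid* and 62.8% and 21 at the first of *Bad*. Others had lower values, with 47.6% and 12 at the first of *Bcl2l1*, 54% and 14 at *Bax* and 58.4% and 8 at *Bak1*. All 250 bases of the *Bak1* window lay in annotated exons of the gene, as did 29 bases of that of *Bid*. The values of *Bak1* are therefore those of transcribed sequence. The *Bcl2* window had 7 GC boxes, *Mcl1* had 1 and *Bcl2l11* had 3. At these other start sites *Bbc3* had 5, *Bid* and *Bad* had 3 each, *Bax* had 2, and *Bcl2l1* and *Bak1* had 0. Of all promoters, 32.7% held at least 1. Among the 3 windows GTAAACA occurred once, in *Bcl2l11*. It also occurred at the second start site of *Bbc3*, and in 3.17% of all promoters. FOXO factors, which bind such a motif, are known activators of BIM transcription. The STAT motif TTCNNNGAA (7.02% of all promoters), the E-box CACGTG (6.02%) and TATAAA (12.4%) occurred in none of the 3 windows. A match of letters does not show that a factor binds.

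*Bcl2*, the founding survival member, lies on chromosome 1 (chr1:106538178-106714274, minus strand, GRCm38 in GENCODE M21) and has 2 annotated exon blocks across 176097 bases. It had 789, 911 and 927 counts in OGT-sufficient against 1291, 1081 and 1105 counts in OGT-deficient samples. Its level was 210.0, 244 and 243 CPM in the OGT-sufficient samples and 332, 272 and 288 CPM in the OGT-deficient samples. The lowest OGT-deficient sample was therefore above the highest OGT-sufficient sample, and OGT-deficient replicate 1 was the highest of all. The mean went from 232 ± 19.5 to 297 ± 30.7 CPM (n = 3 each, SD), a log2 fold change of 0.36 (SE 0.12, unadjusted p = 0.0178, adjusted p = 0.565 by edgeR's quasi-likelihood test). Without OGT-deficient replicate 1 the log2 fold change was 0.27, with an unadjusted p of 0.0816 in the same edgeR test. An antisense gene, *D630008O14Rik*, covers 6.09% of the exon length of *Bcl2*. Without OGT-sufficient replicate 3, the sample that stood apart, the log2 fold change was 0.399 (unadjusted p = 0.0140, adjusted p = 0.613 by edgeR's quasi-likelihood test).

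*Mcl1* encodes a survival protein of short half-life and is compact, with 3 exon blocks on chromosome 3 (chr3:95658788-95663176, plus strand). It had 1784, 1871 and 1841 counts in OGT-sufficient against 2258, 2302 and 2458 counts in OGT-deficient samples. Its level was 475, 502 and 483 CPM against 580.1, 580.0 and 641 CPM, so the gap between the groups was wider than the spread within either. The mean went from 486 ± 13.99 to 601 ± 35.5 CPM (n = 3 each, SD), a log2 fold change of 0.30 (SE 0.11, unadjusted p = 0.0201, adjusted p = 0.577 by edgeR's quasi-likelihood test). Without OGT-deficient replicate 3 the unadjusted p in that edgeR test was 0.0510, with a log2 fold change of 0.29, and without OGT-sufficient replicate 3 it was 0.0167, with 0.307. None of its 3412 annotated 50-base stretches, the read length used, occurs in a transcript of another gene.

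*Bcl2l1*, whose main product is the survival protein BCL-XL, is on chromosome 2 (chr2:152780668-152831728, minus strand). Its level was 41.8, 53.7 and 51.6 CPM in OGT-sufficient samples against 36.0, 48.6 and 46.2 CPM in OGT-deficient samples. The mean was 49.0 ± 6.36 against 43.6 ± 6.72 CPM (n = 3 each, SD) and the samples of the groups overlapped. The log2 fold change of -0.17 (SE 0.16) missed the threshold, and its 95% interval reached from 0.691-fold to 1.15-fold. The difference was thus negative where those of *Bcl2* and *Mcl1* were positive, in each setting that was run.

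The pore-forming genes gave no difference beyond the spread between replicates. *Bax* was at 16.0, 19.9 and 14.7 CPM in OGT-sufficient and 17.2, 15.9 and 19.6 CPM in OGT-deficient replicates 1, 2 and 3. *Bak1* was at 44.2, 38.4 and 30.9 CPM against 39.0, 43.8 and 34.4 CPM. The values of the groups were interleaved in both genes. Their log2 fold changes were 0.06 (SE 0.19) and 0.05 (SE 0.17), with 95% intervals from 0.775-fold to 1.40-fold for *Bax* and from 0.795-fold to 1.35-fold for *Bak1*. Both signs turned without OGT-sufficient replicate 3, to -0.0204 and -0.0679.

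*Bcl2l11* encodes BIM, the BH3-only protein that binds all survival members and sets T-cell death on cytokine withdrawal. It lies on chromosome 2 (chr2:128126038-128162547, plus strand) with 8 annotated transcripts, and the counts are for the gene, so the BIM isoforms were not told apart. It had 341, 440 and 362 counts in OGT-sufficient against 481, 469 and 611 counts in OGT-deficient samples. Its level was 90.7, 118.0 and 94.9 CPM against 124, 118.2 and 159 CPM. The separation of the groups rested on OGT-sufficient replicate 2 and OGT-deficient replicate 2, which were nearly equal. The mean went from 101 ± 14.7 to 134 ± 22.4 CPM (n = 3 each, SD), a log2 fold change of 0.40 (SE 0.16, unadjusted p = 0.0309, adjusted p = 0.666 by edgeR's quasi-likelihood test). Without OGT-deficient replicate 3, the highest sample, the log2 fold change was 0.29 with an unadjusted p of 0.0985 in the same edgeR test. Without OGT-sufficient replicate 3 it was 0.37, with an unadjusted edgeR p of 0.0577, and without OGT-sufficient replicate 1 it was 0.37, with 0.0776.

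The remaining BH3-only genes were low, and their intervals were wide. *Bid*, which links death receptors to mitochondria after cleavage by caspase-8, was at 14.4, 21.999 and 16.8 CPM in OGT-sufficient and 10.5, 11.6 and 19.3 CPM in OGT-deficient replicates 1, 2 and 3. OGT-deficient replicates 1 and 2 were below every OGT-sufficient sample, while replicate 3 lay within their range. Its log2 fold change was -0.36 (SE 0.27, 95% interval 0.507-fold to 1.20-fold). Without OGT-deficient replicate 3 it was -0.643 (unadjusted p = 0.0361, adjusted p = 0.738 by edgeR's quasi-likelihood test). *Bad*, whose product is held inactive by phosphorylation under growth-factor signalling, was at 8.93 ± 1.23 CPM (n = 3, SD) in OGT-sufficient and 7.34 ± 1.03 CPM (n = 3, SD) in OGT-deficient samples. Its log2 fold change was -0.28 (SE 0.24). *Bbc3*, which encodes the p53 target PUMA, was at 8.84 ± 2.17 and 8.06 ± 1.71 CPM (n = 3 each, SD), with a log2 fold change of -0.14 (SE 0.28). *Pmaip1*, which encodes NOXA, the BH3-only partner of MCL-1, was at 30.6, 17.4 and 16.5 CPM in OGT-sufficient and 19.5, 19.4 and 27.7 CPM in OGT-deficient replicates 1, 2 and 3. Its highest samples came from both groups, and its log2 fold change of 0.04 (SE 0.27) turned negative in 4 of the 15 alternative settings. The 95% intervals of *Bad*, *Bbc3* and *Pmaip1* reached from 0.568-fold to 1.19-fold, 0.590-fold to 1.40-fold and 0.677-fold to 1.57-fold, so a change of the size seen in *Bcl2l11* lies inside the last 2.

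**Figure D2:**
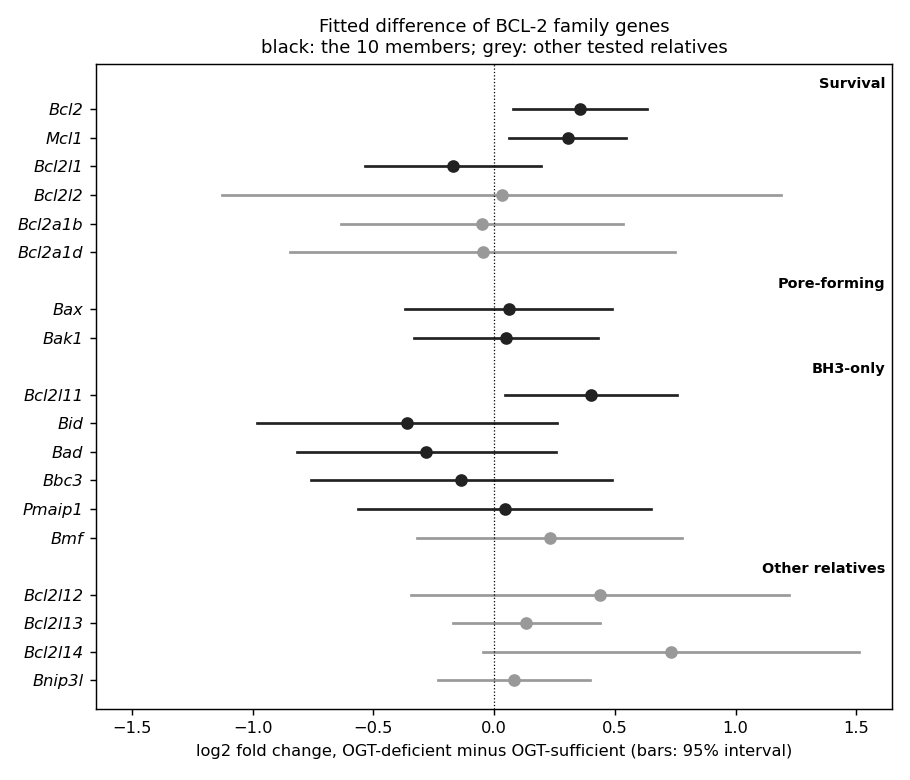
Fitted log2 fold change, OGT-deficient minus OGT-sufficient, with its 95% interval from edgeR's quasi-likelihood fit, for the 10 genes (black) and 8 tested relatives (grey), ordered by role. The intervals of *Bcl2* (0.08 to 0.63), *Mcl1* (0.06 to 0.55) and *Bcl2l11* (0.05 to 0.76) lie above 0, and all others include it.

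The count of 3 genes at an unadjusted p under 0.05 depended on how the libraries were scaled. With the total count as library size and no further scaling, 0 of the 10 genes had such a p, where 5.91% of all genes tested did. The unadjusted edgeR values were 0.109 for *Bcl2*, 0.122 for *Mcl1* and 0.0602 for *Bcl2l11*. Their log2 fold changes there were 0.311, 0.257 and 0.354. When *Rn45s* was left out of the library size, all 3 genes had an unadjusted p under 0.05 again. On that scale *Bcl2l11* no longer separated the groups. OGT-deficient replicate 2 (469 of 2686873 counts) then lay below OGT-sufficient replicate 2 (440 of 2488303 counts). Over all genes, 338 of the 777 genes with such a p were higher in OGT-deficient cells (43.5%), and with the total count as library size 215 of 647 were (33.2%).

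**Figure D3:**
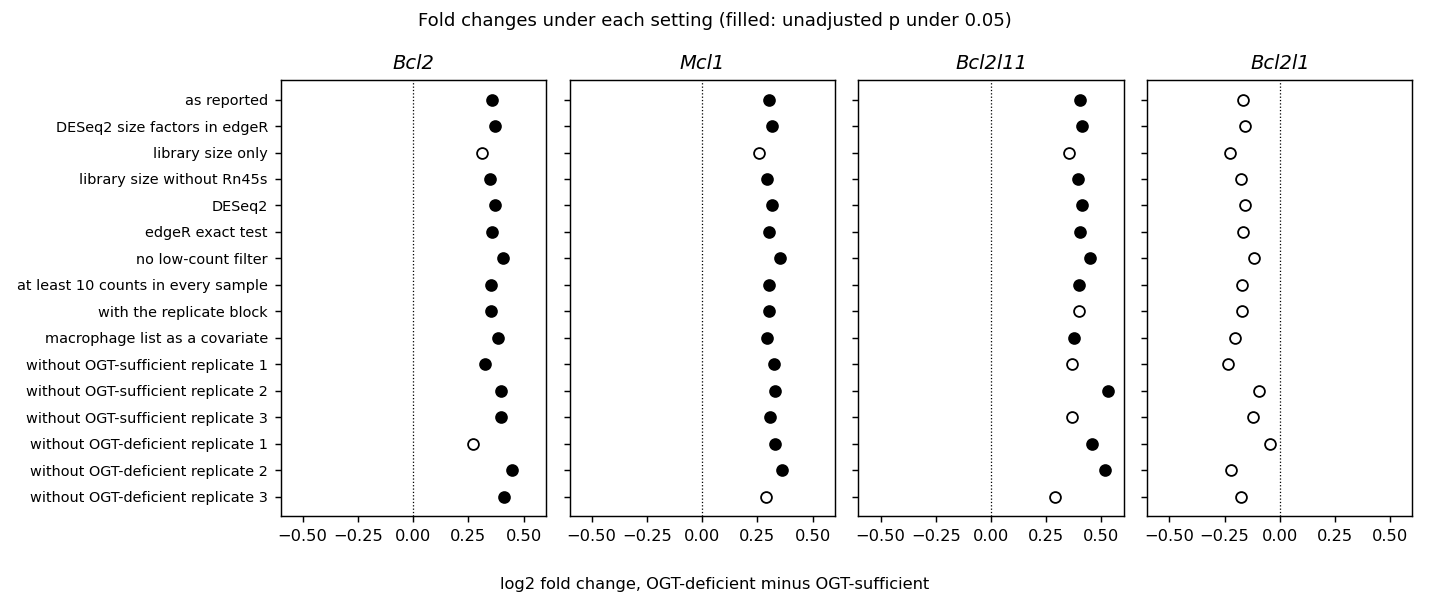
Log2 fold change of 4 genes (x axis, OGT-deficient minus OGT-sufficient) in the reported test and 15 alternative settings (y axis), with filled points where the unadjusted p is under 0.05. *Bcl2*, *Mcl1* and *Bcl2l11* stay above 0 in every row, with open points for all 3 when only the library size is used. *Bcl2* is also open without OGT-deficient replicate 1, and *Mcl1* without OGT-deficient replicate 3. *Bcl2l11* is also open with the replicate block and without OGT-sufficient replicate 1, OGT-sufficient replicate 3 or OGT-deficient replicate 3. *Bcl2l1* stays below 0, between -0.234 and -0.0468.

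The summed level of the macrophage markers is set beside *Bcl2*, *Mcl1* and *Bcl2l11* here, and its part in their levels was not tested. It was lowest in OGT-deficient replicate 1 (1107 CPM), where *Bcl2* was highest (332 CPM), and highest in OGT-deficient replicate 3 (4176 CPM), where *Mcl1* (641 CPM) and *Bcl2l11* (159 CPM) were highest. A further fit took the mean log2 CPM of these markers, not their sum, as a covariate. The log2 fold changes there were 0.385 for *Bcl2*, 0.295 for *Mcl1* and 0.378 for *Bcl2l11*. Their unadjusted edgeR p-values were 0.00596, 0.0274 and 0.0294.

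Ratios of counts within a sample do not depend on how libraries are scaled, and they show the genes relative to each other. The pairs were chosen with the values known, so they are given without a test. The ratio of *Bcl2* to *Bcl2l11* was 2.31, 2.07 and 2.56 in OGT-sufficient samples against 2.68, 2.30 and 1.81 in OGT-deficient samples. The ratio of *Mcl1* to *Bcl2l11* was 5.23, 4.25 and 5.09 against 4.69, 4.91 and 4.02. The groups overlapped in both ratios, with means of 2.32 against 2.27 and of 4.86 against 4.54, so no difference beyond the spread between samples was seen in either.

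*Bcl2l1* stood lower relative to each of the other 3 genes. Its ratio to *Bcl2* was 0.199, 0.220 and 0.213 in OGT-sufficient samples against 0.108, 0.179 and 0.160 in OGT-deficient samples. Its ratio to *Mcl1* was 0.0880, 0.107 and 0.107 against 0.0620, 0.0838 and 0.0720. Its ratio to *Bcl2l11* was 0.460, 0.455 and 0.544 against 0.291, 0.412 and 0.290. Every OGT-deficient sample was below every OGT-sufficient sample in these 3 ratios, and the differences in log2 ratio were -0.53, -0.48 and -0.57. The 3 ratios share the *Bcl2l1* counts and are not separate observations. Their denominators are the 3 genes higher in all OGT-deficient samples, so a gene that did not rise tends to separate over them. Ratios of *Mcl1* to *Pmaip1*, *Bcl2* to *Bax* and *Mcl1* to *Bak1* overlapped between the groups. Other pairs, such as *Bad* to these genes, were not computed, so the pattern may not be particular to *Bcl2l1*.

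**Figure D4:**
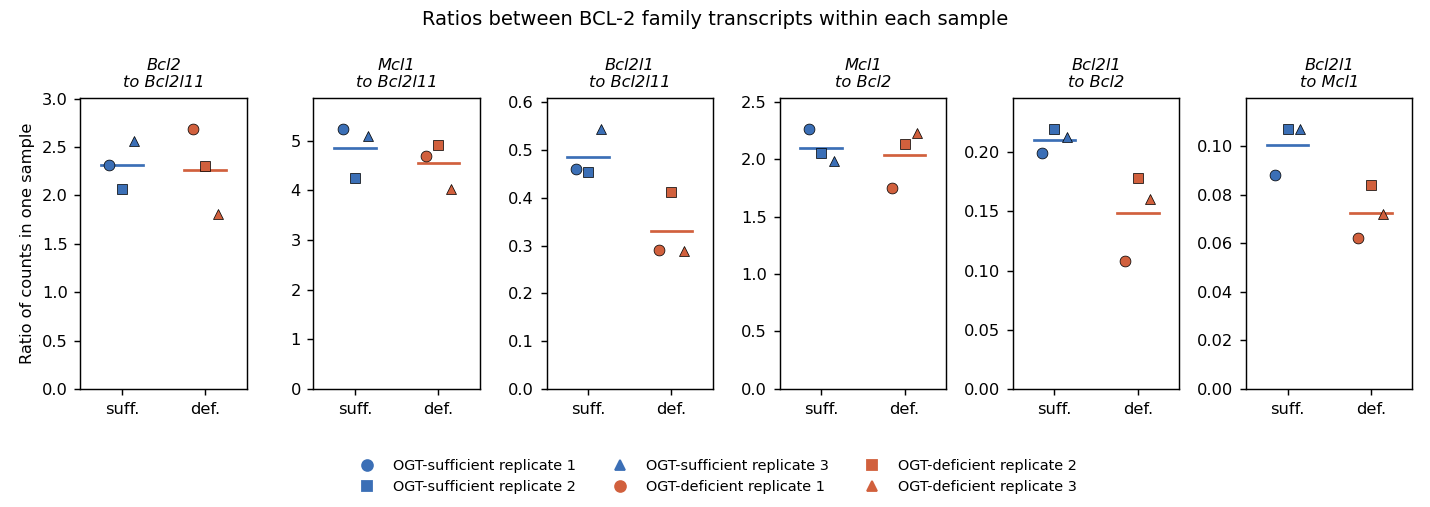
Ratio of the counts of 2 genes within each sample (y axis, linear from 0), for OGT-sufficient (blue) and OGT-deficient (orange) samples, with the group mean as a line. The 3 ratios with *Bcl2l1* on top do not overlap between the groups (for *Bcl2l1* to *Bcl2*, 0.199 to 0.220 against 0.108 to 0.179), and the other 3 do.

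Levels of different genes are compared here per kilobase of exon length (CPM divided by the length of all annotated exons of the gene). On this scale *Mcl1* was highest in every sample, between 139 and 188, followed by *Bcl2*, between 22.9 and 36.2. *Mcl1* made up 59.1% to 62.9% of the summed per-length level of the 10 genes and *Bcl2* 9.85% to 13.3%. With this length, the ranges of these 2 genes overlapped neither each other nor that of any other member. *Bak1* (12.9 to 18.4), *Bcl2l11* (11.3 to 19.9), *Bax* (9.32 to 12.6), *Bcl2l1* (7.84 to 11.7) and *Pmaip1* (6.05 to 11.2) followed, each overlapping the next. *Bid* (2.97 to 6.20), *Bbc3* (3.01 to 4.94) and *Bad* (2.45 to 3.79) were lowest and also overlapped. With the longest transcript as the length, *Mcl1* and *Bcl2* kept their places, but the range of *Bcl2* (29.2 to 46.1) then overlapped that of *Bcl2l11* (18.0 to 31.7). *Bcl2l11* and *Bcl2l1* moved ahead of *Bak1*, and 6 of the 10 ranks changed. The summed share of *Bcl2*, *Mcl1* and *Bcl2l1* was 73.5%, 74.5% and 77.0% in OGT-sufficient and 78.3%, 77.9% and 76.8% in OGT-deficient replicates 1, 2 and 3, so the groups overlapped.

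**Figure D5:**
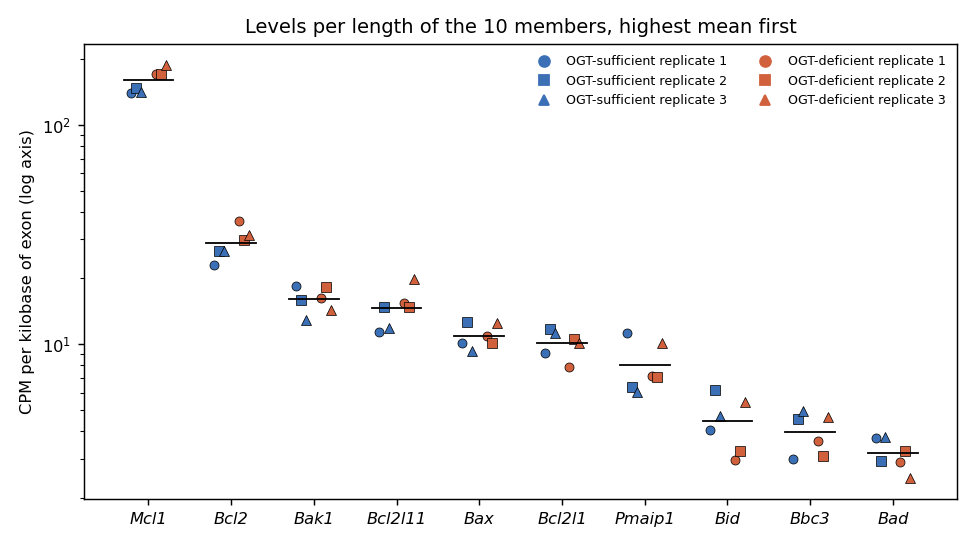
Level per kilobase of exon (CPM per kilobase, log axis) of the 10 genes in each of the 6 samples, ordered by the mean over all samples (line). *Mcl1* (139 to 188) and *Bcl2* (22.9 to 36.2) stand clear, with this length, of the other 8 genes, which form a chain of overlapping ranges down to *Bad* (2.45 to 3.79).

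Several of these genes share sequence with a neighbour, and the strand setting of the counting is not given in the sources used here. *Bid* and *Bcl2l13* overlap on opposite strands, and 16.4% of the 50-base stretches of *Bid* transcripts also occur in transcripts of other genes on either strand. The share was 17.1% for *Bak1*, mostly with *Ggnbp1*, 17.2% for *Bad*, mostly with *Gpr137*, and 8.51% for *Bax*. For *Bcl2* it was 5.25%, mostly with *D630008O14Rik*. For *Bcl2l11* it was 0.135%, and for *Mcl1*, *Bcl2l1*, *Bbc3* and *Pmaip1* it was 0%. The levels of *Bid*, *Bak1*, *Bad* and *Bax*, and to a smaller degree *Bcl2*, are less certain for that reason.

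Of 15 other genes of the family, 8 had enough counts to be tested. Of these, 0 had an unadjusted p under 0.05, where 7.1% of all genes tested had one, so 8 genes are too few to differ from that share. *Bcl2a1b*, a gene of the survival protein A1, was at 19.5 ± 6.34 CPM (n = 3, SD) in OGT-sufficient and 18.8 ± 2.83 CPM (n = 3, SD) in OGT-deficient samples. *Bcl2a1d* was at 3.09 and 2.998 CPM, and *Bcl2a1a* had 5, 3 and 4 against 6, 10 and 9 counts and was not tested. Between 69.0% and 79.5% of the 50-base stretches of these 3 copies occur in another gene, so how reads were split among them is uncertain. *Bmf*, a BH3-only gene, had a log2 fold change of 0.23 (SE 0.24). *Bcl2l14* had 8, 9 and 9 counts in OGT-sufficient against 17, 17 and 11 in OGT-deficient samples. These did not overlap, as in 13.2% of all genes tested. The log2 fold change of *Bcl2l14* was 0.73 (SE 0.34, unadjusted p = 0.0623, adjusted p = 0.713 by edgeR's quasi-likelihood test). An antisense gene covers 14.1% of its exon length. *Bcl2l13* and *Bnip3l*, which act in mitophagy, had log2 fold changes of 0.13 (SE 0.13) and 0.08 (SE 0.14). *Bcl2l12*, of whose 50-base stretches 24.6% are shared, had 0.44 (SE 0.35) and *Bcl2l2*, the gene of the survival protein BCL-W, had 0.03 (SE 0.51). *Bcl2l15* had 2 to 7 counts per sample, *Bnip3* 2 to 8, *Bik* 1 to 4, *Hrk* 0 to 4, *Bok* 0 to 2 and *Bcl2l10* 0 in every sample, so at this depth they were at or near the floor of 3 counts.

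The genes around the family were read from fixed lists, in which 6 of 67 tested genes had an unadjusted p under 0.05, 3 in each direction, against 7.1% of all genes. Their median log2 fold change was 0.03. After adjustment over all genes tested, none of these (0 of 67) reached an FDR of 0.1 in edgeR's quasi-likelihood test. Of 11 caspases and apoptosome genes 0 had an unadjusted p under 0.05, and the lowest was that of *Casp2* with a log2 fold change of -0.30 (SE 0.14, unadjusted p = 0.0640 by edgeR). *Apaf1*, the apoptosome scaffold, was at 0.04 (SE 0.13) on the log2 scale. Of 6 caspase inhibitor genes, *Birc5*, which encodes survivin and is expressed mainly in dividing cells, had 118, 110 and 114 counts in OGT-sufficient and 91, 90 and 86 counts in OGT-deficient samples, a log2 fold change of -0.41 (SE 0.13, adjusted p = 0.565).

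Of 10 death receptor and adaptor genes, *Cradd*, whose product RAIDD brings caspase-2 into the PIDDosome, had 22, 27 and 22 counts in OGT-sufficient and 43, 35 and 39 in OGT-deficient samples. Its log2 fold change was 0.67 (SE 0.23, adjusted p = 0.565 by edgeR's quasi-likelihood test). Of 11 genes that handle BCL-2 family proteins, 0 had an unadjusted p under 0.05 by edgeR, where 7.1% of all genes tested had one. The groups were separate in 1 of the 11, the MCL-1 ubiquitin ligase gene *Huwe1*, and in 13.2% of all genes. *Huwe1* was at 536, 561 and 812 CPM in OGT-sufficient against 529, 530 and 520 CPM in OGT-deficient samples (0.827-fold, unadjusted p = 0.130 by edgeR). Of 9 tested p53 pathway genes, *Ccng1* (cyclin G1) was at 124 ± 19.2 CPM (n = 3, SD) in OGT-sufficient and 153 ± 5.97 CPM (n = 3, SD) in OGT-deficient samples, with a log2 fold change of 0.31 (SE 0.13).

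Of 12 tested transcription factors known to act on BCL-2 family genes, 3 had an unadjusted p under 0.05, where 7.1% of all genes had one. *Egr1* had 391, 360 and 410 counts in OGT-sufficient and 303, 265 and 312 in OGT-deficient samples, a log2 fold change of -0.45 (SE 0.12, adjusted p = 0.440 by edgeR). *Myc* was higher, at 89.3 ± 7.49 against 119 ± 14.8 CPM (n = 3 each, SD), with a log2 fold change of 0.41 (SE 0.13). *Rela*, the NF-kB subunit, was lower, at 74.2 ± 8.47 against 58.8 ± 0.138 CPM (n = 3 each, SD), with -0.33 (SE 0.12). The groups were separate in 4 of the 12, these 3 and *Nfkb1* (log2 fold change -0.20, SE 0.12), and in 13.2% of all genes. The FOXO genes *Foxo1* and *Foxo3* had log2 fold changes of 0.27 (SE 0.14) and 0.13 (SE 0.15), and *Stat5a* and *Stat5b* of 0.19 (SE 0.16) and 0.15 (SE 0.12), all with an unadjusted p above 0.05.

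Over the 6 samples, the genes whose log2 level followed *Bcl2* most closely were *Zfp553*, *Zdhhc15* and *Cast* (calpastatin, the calpain inhibitor), with a Pearson r of 0.990, 0.981 and 0.975. For *Bcl2l11* they were *Klhdc2*, *Med22* and *Rspry1*, with 0.986, 0.980 and 0.974. The 6 points of each correlation share their libraries and their group difference, and the genes are the closest of the 10949 tested.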

How the data were processed

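Whole-number counts per gene symbol were deposited for 6 samples. For mm10, the submitters' processing notes name Trimmomatic 0.33, FastQC, Bowtie2 2.2.4.0, featureCounts and edgeR, and the paper's methods name Cuffquant for quantification. Annotation, strand and treatment of shared reads are not given in the sources used here. The authors also deposited fold changes and p-values of their own test, which were not used. Samples were grouped by title. The counts were filtered with edgeR 4.0.16 in R 4.3.3 (minimum count 10), scaled by TMM and compared by quasi-likelihood F-tests, adjusted over 10949 genes after Benjamini and Hochberg. Standard errors (SE) were derived from the log2 fold change and its F statistic. An exact permutation test of 3 samples against 3 cannot go below 0.1. The labels do not say whether samples of a group came from separate mice, so p-values measure only the spread between these samples, which may be technical. Replicates of a group were not duplicates (chi-square per degree of freedom 3.49 to 24.2). Exon lengths and overlaps came from GENCODE M21, promoters from RefSeq GRCm38.p6, used for 9 of the 10 genes. Members and lists were chosen with earlier results of these data known. Named were *Ogt*, all BCL-2 family genes, and in each other list the genes with an unadjusted p under 0.05 or else that with the lowest p. The gene with the lowest p of 1 list is not reported here. Further genes named in the text were chosen with their values known. Alternatives were DESeq2 1.42.0, edgeR's exact test, other scalings and filters, a replicate block, a macrophage covariate and leaving out each sample.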

Additional observations from a re-analysis of the deposited data

How the results depend on the processing

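*Bcl2*, *Mcl1* and *Bcl2l11* were higher in OGT-deficient samples in all 15 alternative settings (some leave out a sample), with log2 fold changes of 0.272 to 0.449, 0.257 to 0.361 and 0.290 to 0.529, and an unadjusted p under 0.05 in 13, 13 and 10 of them. Among the 10 genes, 0 passed an FDR of 0.1 in any setting. With library size only, 0 had an unadjusted p under 0.05, where 5.91% of all genes tested did. From 2 to 3 of the 10 did with a sample left out, where 4.13% to 7.91% of all genes did. They were not always the same genes. Without OGT-deficient replicate 3 they were *Bcl2* and *Bid*, and *Bid* was lower in OGT-deficient samples, at -0.643. Signs turned only in genes near 0. Without a sample, *Bax* ranged from -0.0204 to 0.198, *Bak1* from -0.0679 to 0.213, *Bbc3* from -0.284 to 0.0279 and *Pmaip1* from -0.112 to 0.424, and *Pmaip1* was -0.0149 with the macrophage covariate. The log2 fold change of *Ogt* was -1.21 and passed an FDR of 0.1 with DESeq2 (-1.19), the exact test (-1.21), no filter (-1.15) and the macrophage covariate (-1.14). The genes at an FDR of 0.1 numbered 3 as reported, 131 when no filter was applied, 80 by the exact test, 38 by DESeq2, 31 with the macrophage covariate, 0 with the replicate block (679 at an unadjusted p under 0.05) and 0 to 9 with a sample left out. The count at an unadjusted p under 0.05 was 452 with DESeq2, 1208 without a filter and 462 to 889 with a sample left out, and for the pathway lists 2 with DESeq2 and 3 to 7 with a sample left out. The order by level per length changed in 6 ranks with the longest transcript and in 0 with a sample left out. Causes were not tested. Replicate numbers gave no sign of pairing, as the deviations of same-numbered samples correlated at -0.281, 0.00726 and -0.118. With 3 samples per group and large swings in single samples, these values cannot exclude a pairing. With the replicate block *Bcl2l11* had an unadjusted edgeR p of 0.0552, and *Bcl2* and *Mcl1* stayed under 0.05. Counts of 24 to 40 per sample, as for *Bad* and *Bbc3*, limit what could be seen.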

Other observations

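*Phlda3*, a p53 target that restrains AKT, was counted 1, 1 and 2 times with OGT and 6 times in each OGT-deficient sample. It was chosen after its values were seen, it was not tested because of its low counts. *Cdkn1a*, another p53 target, had 6 to 13 counts per sample, with overlapping groups, and was not tested either.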
